A study of Mus musculus with 36 samples.

Results

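The transcription factor genes Foxa1, Foxa2, Foxa3, Sox17 and Hhex, which mark the forming endoderm, were followed through a mouse embryonic stem cell differentiation series. They are 5 of the 49671 gene identifiers counted and were picked out by name. RNA with poly(A) tails was sequenced in 36 libraries, all from cells with a doxycycline (dox) inducible transgene for Mesp1, a transcription factor of early mesoderm. Batch 1 held 2 libraries each of 0 h, 12 h with dox, 12 h without dox, 24 h with dox and 24 h without dox. Batch 2 repeated 0 h (2 libraries), 24 h with dox (4) and 24 h without dox (2). Batch 3 set 2 libraries labelled Zic2 knockout (Zic2 KO) beside 2 labelled WT, each given dox for 24 h; all other libraries are wild type. From cells in 2i came 2 libraries with dox and 2 without; this medium contains kinase inhibitors that keep stem cells naive. Day 4 gave 5 libraries of sorted cells carrying both Pdgfra and Flk1, the receptor that Kdr encodes (double positive), 3 of cells with neither (double negative) and 2 of unsorted cells.

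The hours were counted from a stage labelled d2-5, and the labels' growth record gives hanging drops of 1000 cells in serum for every library, the 2i libraries included. The treatment record names doxycycline for all libraries, whereas the titles of the day 4 libraries name none, and the tag ND on the unsorted ones is not explained. All groups carry the inducible transgene and no library lacks it, so an effect of dox as such and an effect of Mesp1 cannot be told apart. Reads of the transgene and of the cells' own Mesp1 are counted together. Whether replicates came from separate cultures is not given in the labels, so p-values cover only the variation among these libraries, which may be technical.

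Definitive endoderm leaves the anterior primitive streak under high Nodal signalling. Foxa2 is a forkhead factor that opens closed chromatin and marks the anterior streak, the node and its notochord as well as the endoderm, while Foxa1 and Foxa3 are its relatives in the later gut tube and liver. Sox17, an HMG-box factor, is needed for gut endoderm and is also used by extraembryonic endoderm and by endothelium. Hhex, a homeobox repressor, marks anterior definitive and visceral endoderm and endothelial progenitors.

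In GRCm38 with GENCODE M21 annotation, Foxa1 (ENSMUSG00000035451) lies on chromosome 12 from 57540628 to 57546916 on the minus strand. Foxa2 (ENSMUSG00000037025) lies on chromosome 2 from 148042877 to 148046969, and Foxa3 (ENSMUSG00000040891) on chromosome 7 from 19013284 to 19023538, both on the minus strand. Sox17 (ENSMUSG00000025902) lies on chromosome 1 from 4490931 to 4497354 on the minus strand, and Hhex (ENSMUSG00000024986) on chromosome 19 from 37434810 to 37440731 on the plus strand. The exons of Sox17 shared 16.8% of their bases with the transcript Gm37587 on the opposite strand, which had 0 to 67 counts in a library. Strand use in the counting is not given in the sources used here, so reads in the shared stretch cannot be assigned. The exons of the other 4 genes overlapped no other gene. The longest run of bases shared exactly between Foxa genes was 38, between Foxa1 and Foxa2.

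Of the promoters, that of Foxa2 is shown because it changed most with dox, and that of Foxa1 because it alone held a forkhead motif, the kind of site that Foxa proteins bind. Each runs from 250 bases before to 50 bases after a transcript start in RefSeq's GRCm38.p6 annotation, on the minus strand, at chr12:57546062-57546361 for Foxa1 and chr2:148046920-148047219 for Foxa2. Capitals mark the forkhead match.
Foxa1: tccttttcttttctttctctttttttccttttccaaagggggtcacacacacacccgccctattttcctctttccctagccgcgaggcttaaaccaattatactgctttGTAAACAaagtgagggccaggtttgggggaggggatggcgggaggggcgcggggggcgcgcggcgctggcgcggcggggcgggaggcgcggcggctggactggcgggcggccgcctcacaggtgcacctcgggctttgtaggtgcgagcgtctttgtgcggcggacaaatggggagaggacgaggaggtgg
Foxa2: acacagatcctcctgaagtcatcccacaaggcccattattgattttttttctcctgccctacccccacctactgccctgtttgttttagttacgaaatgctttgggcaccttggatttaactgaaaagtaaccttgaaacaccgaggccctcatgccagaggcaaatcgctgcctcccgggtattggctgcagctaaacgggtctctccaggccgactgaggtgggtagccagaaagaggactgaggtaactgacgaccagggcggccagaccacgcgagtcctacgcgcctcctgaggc

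RefSeq gave 6 such windows for 4 of the genes, 3 of them for alternative starts of Foxa2, and none for Sox17. The forkhead motif TGTTTAC was searched on both strands. Foxa1 held it once, as GTAAACA on the printed strand with its first base at -141 from the start, and the other 5 windows held none. Of 32851 RefSeq windows of that length, 3.65% held it. Neither the Foxh1 motif AATCCACA (0.855% of all windows), the T-box motif AGGTGTGA (1.28%), the bicoid-type homeobox motif TAATCC (7.06%) nor the Sox motif AACAAT (10.7%) was found in the 6 windows. AATCCACA and TAATCC can overlap in 5 letters. The E-box CANNTG, the kind of site that Mesp1 and its relatives bind and present in 72.3% of all windows, occurred in 3 of the 6, with 2 matches in Foxa1 and 1 each in Foxa3 and the third Foxa2 window. These matches describe letters and were not tested as binding sites.

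Levels are given in CPM, a count scaled to the gene total of its library. These totals lay between 12126604 and 51940589, which makes a single count worth 0.0193 to 0.0825 CPM. Mesp1 reached 42.9 to 544 CPM at 24 h with dox in batches 1 and 2, against 0.808 to 45.3 CPM without dox, a called rise of 4.52 ± 0.72 on the log2 scale (± SE, adjusted p = 0.00116). In the double positive libraries Kdr reached 735 to 1260 CPM and Pdgfra 302.5 to 524 CPM, against 2.84 to 6.57 CPM and 12.3 to 16.5 CPM in the double negative ones, as the sort requires. Zic2 read 73 and 56.4 CPM in the libraries labelled Zic2 KO and 108 and 74.7 CPM in those labelled WT, a change of -0.50 that was not called, and the labels do not name the deleted part. The summed level of 10 pluripotency genes was 6508 to 7304 CPM over the 2i libraries and 1710 to 1919 CPM at 0 h.

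All 5 genes had their highest mean in the double negative cells of day 4, and Foxa1, Foxa2 and Foxa3 their lowest in 2i with dox. Group means spanned 137-fold for Foxa1, 125-fold for Foxa2, 12.1-fold for Foxa3, 171-fold for Sox17 and 29.1-fold for Hhex. In the double negative cells Foxa1 averaged 76.1 ± 23.9 CPM, Foxa2 161 ± 21.4 CPM, Foxa3 12.9 ± 4.93 CPM, Sox17 151 ± 10.2 CPM and Hhex 65.5 ± 15.7 CPM (SD, n = 3). Every double negative library lay above all other libraries for Foxa1, Foxa3, Sox17 and Hhex, as held for 3.3% of 18498 genes with a group mean of at least 1 CPM in at least 2 groups. For Foxa2 the lowest double negative library, at 136 CPM, overlapped the higher 24 h library without dox of batch 2, at 137 CPM. Corrected for exon length, Foxa2 led in the double negative cells with 68.0 CPM per kb, followed by Sox17 with 31.5, Foxa1 with 22.9, Hhex with 13 and Foxa3 with 6.33 CPM per kb. Down the order of the 15 group means, neighbouring groups did not overlap at 3 of 14 steps for Foxa1 and Foxa2, 2 for Foxa3 and 5 for Sox17 and Hhex. At the other steps the ranges overlapped. Neighbours in this order are the closest by mean, most groups hold 2 libraries, and no difference between neighbours was tested this way.

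**Figure D1:**
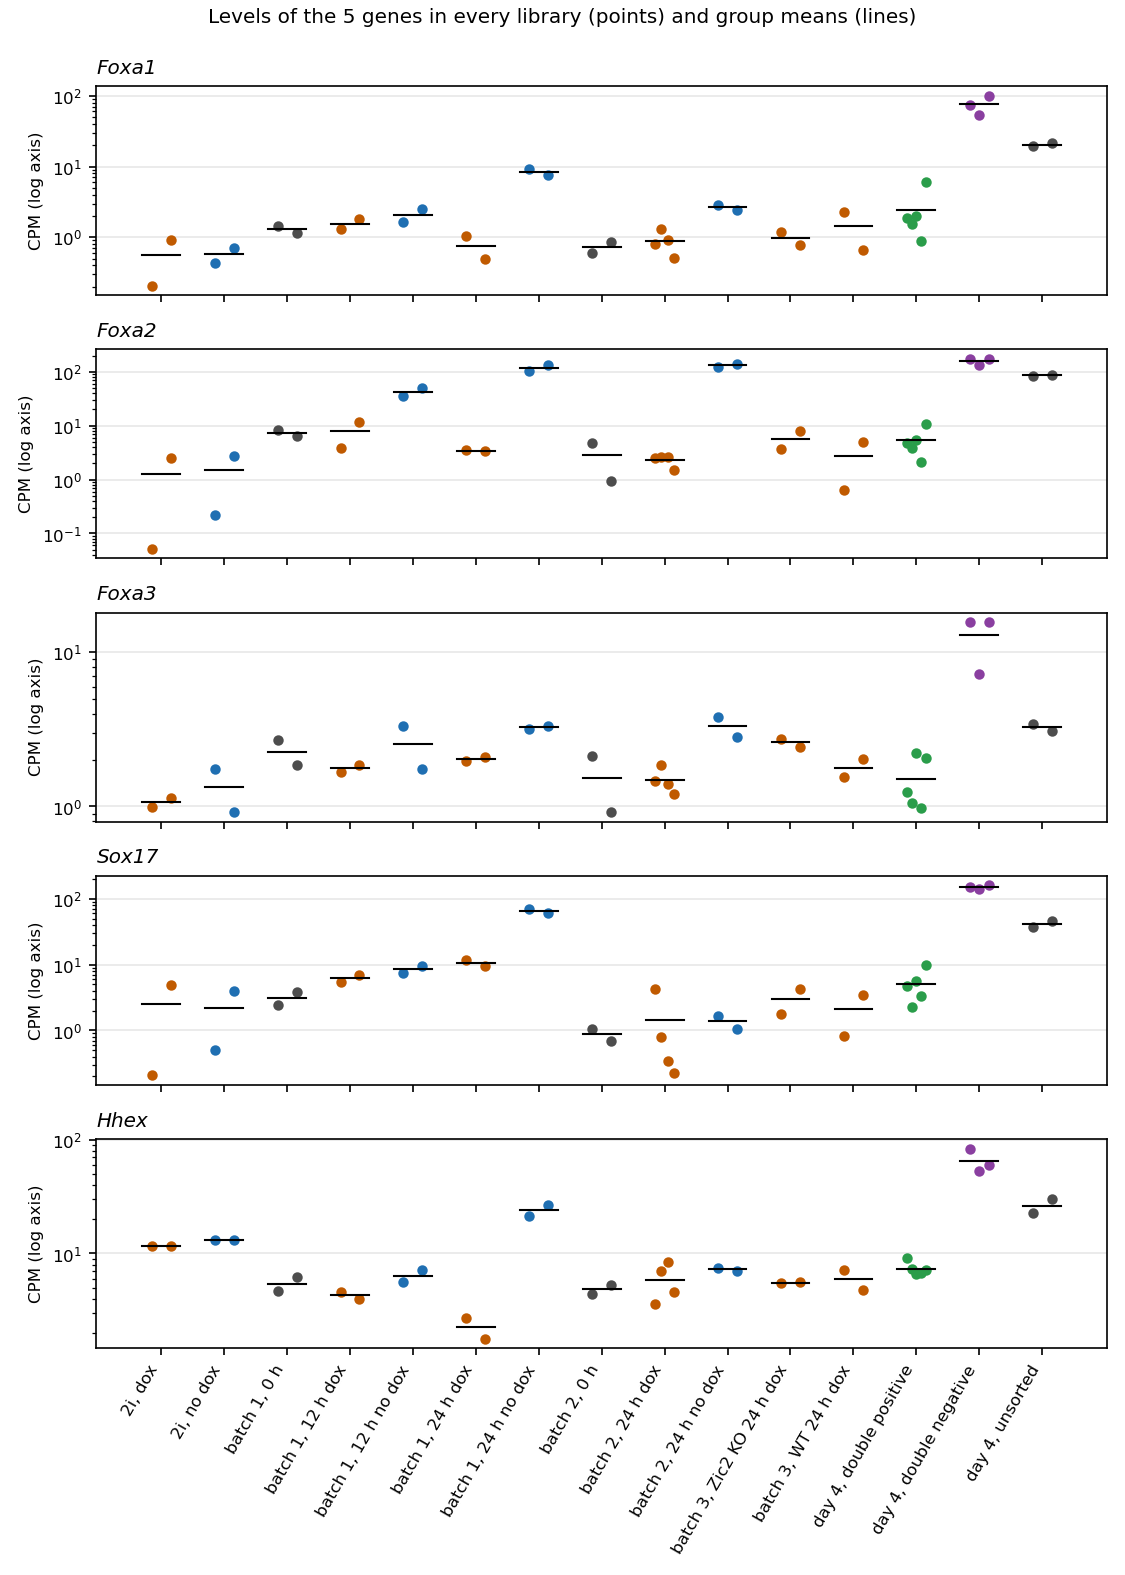
CPM of Foxa1, Foxa2, Foxa3, Sox17 and Hhex in each of the 36 libraries (points, log axis), with the mean of each group as a line. Orange marks dox, blue no dox, green double positive, purple double negative and grey 0 h and unsorted cells; the 3 double negative libraries are the highest for every gene but Foxa2, whose 24 h libraries without dox come close.

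Without dox, Foxa2, Foxa1, Sox17 and Hhex were higher at 24 h than at 0 h, and at 12 h Foxa2 was the 1 gene of the 5 already called. Foxa2 read 8.34 and 6.54 CPM at 0 h, 35.3 and 49.5 CPM at 12 h, and 103 and 135 CPM at 24 h in batch 1. In batch 2 it read 125 and 137 CPM at 24 h, against 4.71 and 0.927 CPM at 0 h. The 24 h libraries of both batches thus lay far above every 0 h library, and those of 12 h lay between. Fitted over both batches, 24 h exceeded 0 h by 4.61 ± 0.38 on the log2 scale, or 24.5-fold (adjusted p = 3.26e-06). Here and below, fewer cells of a type and less RNA per cell cannot be told apart. At 12 h the rise was 2.78 ± 0.47 (adjusted p = 0.0143), and Foxa2 was the 1 called gene of the 5, where 0.317% of all genes tested were called, 0.274% higher and 0.043% lower. That call was lost without the second 0 h library (adjusted p = 0.07), without the second 12 h library (0.27) and in batch 1 alone (0.0642).

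At 24 h without dox, 4 of the 5 genes were called higher than at 0 h, where 25.1% of all genes were called, 13.5% higher and 11.7% lower. Sox17 read 68.9 and 60.4 CPM at 24 h in batch 1, against 2.46 and 3.82 CPM at 0 h, but 1.67 and 1.07 CPM at 24 h in batch 2, against 1.06 and 0.695 CPM at 0 h. Its fitted change was 3.17 ± 0.71 (adjusted p = 0.00664), made of 4.28 ± 0.24 in batch 1 alone (adjusted p = 6.55e-05) and 0.58 ± 1.21 in batch 2 alone (adjusted p = 0.794). Foxa1 read 9.31 and 7.67 CPM at 24 h against 1.45 and 1.15 CPM at 0 h in batch 1, and 2.83 and 2.45 CPM at 24 h against 0.608 and 0.849 CPM at 0 h in batch 2. Its groups did not overlap in either batch, as held for 63.2% of 18498 genes in batch 1 and 54.9% in batch 2. The fitted change was 2.29 ± 0.37 (adjusted p = 0.000361), with an adjusted p of 0.0716 in batch 2 alone. Hhex read 21.4 and 26.7 CPM at 24 h against 4.64 and 6.21 CPM at 0 h in batch 1, and 7.44 and 7.02 CPM at 24 h against 4.41 and 5.25 CPM at 0 h in batch 2. Its change of 1.51 ± 0.45 (adjusted p = 0.0241) was 2.08 in batch 1 alone (adjusted p = 0.00109) and 0.53 in batch 2 alone (adjusted p = 0.433). Leaving out either 24 h library of batch 1, or the first 0 h library, also ended the Hhex call (adjusted p 0.0614 to 0.0711). Foxa3 stayed low, at 3.19 and 3.33 CPM in batch 1 and 3.81 and 2.82 CPM in batch 2 at 24 h, against 0.927 to 2.69 CPM at 0 h, and its change of 0.73 ± 0.27 was not called (adjusted p = 0.06).

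Between 12 h and 24 h without dox, none of the 5 was called over both batches, while 4 had an unadjusted p below 0.05 and DESeq2 called 2. There 0.264% of all genes were called, 0.215% higher and 0.0484% lower, and 12 h was sampled in batch 1 alone. Within batch 1, Foxa1 (2.05 ± 0.32, adjusted p = 0.0167), Sox17 (2.91 ± 0.22, adjusted p = 0.000903) and Hhex (1.92 ± 0.23, adjusted p = 0.00636) rose over these hours. Foxa2, already up at 12 h, gained 1.48 ± 0.41 in batch 1 (adjusted p = 0.109).

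With dox for 24 h, 4 of the 5 genes were lower than without it, where 30% of all genes were called, 15.4% higher and 14.6% lower. Foxa2 fell furthest. It read 3.52 and 3.41 CPM with dox in batch 1, against 103 and 135 CPM without. In batch 2 it read 2.57, 2.67, 2.58 and 1.49 CPM with dox, against 125 and 137 CPM without. All 6 libraries with dox lay at or below 3.52 CPM and all 4 without at or above 103 CPM. The fitted change was -5.50 ± 0.36, a 45.2-fold lower level (95% interval -6.26 to -4.74, adjusted p = 1.37e-08). Foxa2 was about as much lower in batch 1 alone (-5.13 ± 0.47) as in batch 2 alone (-5.82 ± 0.42).

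Foxa1 read 1.04 and 0.487 CPM with dox in batch 1 against 9.31 and 7.67 CPM without, and 0.807, 1.29, 0.905 and 0.515 CPM in batch 2 against 2.83 and 2.45 CPM without. Its groups did not overlap in either batch, as held for 49.9% of 18498 genes in batch 1 and 41.2% in batch 2. The change was -2.43 ± 0.33, or 5.38-fold lower (adjusted p = 3.23e-05). It was -1.58 ± 0.40 in batch 2 alone (adjusted p = 0.0194) and -3.37 ± 0.36 in batch 1 alone (adjusted p = 0.000295), a difference of 1.80 ± 0.53 that was not called (unadjusted p = 0.0044, adjusted p = 0.24). Foxa3 read 1.96 and 2.11 CPM with dox in batch 1 against 3.19 and 3.33 CPM without, and 1.47, 1.86, 1.39 and 1.2 CPM in batch 2 against 3.81 and 2.82 CPM without. The groups were again separate, with a small change of -0.93 ± 0.25, or 1.91-fold lower (adjusted p = 0.00804). Neither batch alone gave a Foxa3 call (adjusted p 0.198 in batch 1 and 0.0579 in batch 2), nor did the fit without the first 24 h library without dox of batch 2 (0.0539).

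For Sox17 and Hhex the groups overlapped in batch 2 and not in batch 1. Hhex read 2.73 and 1.78 CPM with dox in batch 1, against 21.4 and 26.7 CPM without. In batch 2 it read 3.59, 6.96, 8.42 and 4.58 CPM with dox against 7.44 and 7.02 CPM without, and there the groups overlapped. The joint change was -1.66 ± 0.41 (adjusted p = 0.0097), from -3.38 ± 0.25 in batch 1 alone (adjusted p = 5.3e-05) and -0.29 ± 0.34 in batch 2 alone (adjusted p = 0.597). The difference between the batches, batch 2 minus batch 1, was itself called for Hhex, at 3.11 ± 0.45 (adjusted p = 0.00515), where 0.629% of all genes were called, 0.554% higher and 0.0753% lower. It was lost without the first 24 h library without dox of batch 2 (3.14, adjusted p = 0.0529).

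Sox17 read 11.8 and 9.57 CPM with dox in batch 1, against 68.9 and 60.4 CPM without. In batch 2 it read 4.33, 0.809, 0.348 and 0.229 CPM with dox against 1.67 and 1.07 CPM without. The batch 1 groups were far apart, while those of batch 2 overlapped, with 1 dox library above both libraries without dox and 3 below. Over both batches the change of -1.67 ± 0.59 was not called (adjusted p = 0.0606). In batch 1 alone it was -2.6 ± 0.22 (adjusted p = 8.94e-05) and in batch 2 alone 0.06 ± 1.00 (adjusted p = 0.977). Without the first dox library of batch 2, the 1 at 4.33 CPM, the joint change was called (-2.29 ± 0.45, adjusted p = 0.00093), as it was without either library without dox of that batch (-2.02, adjusted p = 0.0417, and -2.09, adjusted p = 0.0249). The batch difference of 2.64 ± 0.99 was not called for Sox17 (unadjusted p = 0.0187, adjusted p = 0.495).

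**Figure D2:**
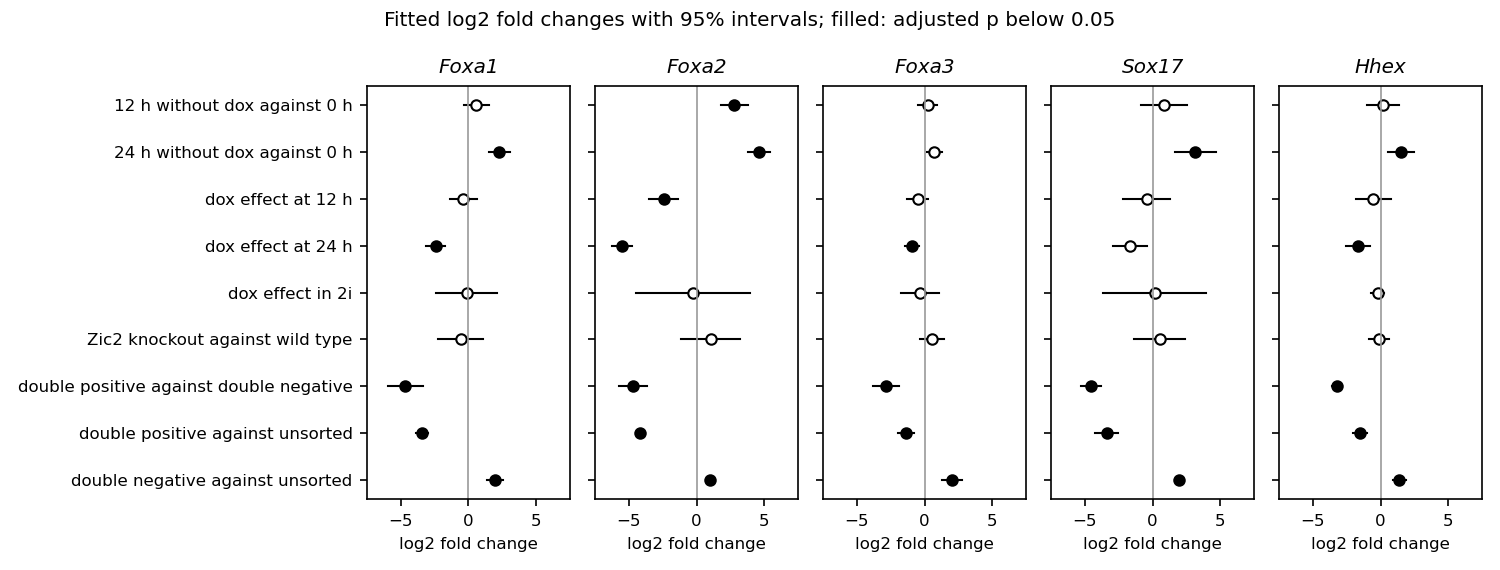
Fitted log2 fold changes of the 5 genes in 9 comparisons (points) with their 95% intervals (lines), filled where the adjusted p is below 0.05. Values left of 0 are lower in the group named first; Foxa2 is lower by 5.50 with dox at 24 h, and all 5 genes are lower in double positive cells.

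With dox, Foxa2 fell by a larger fold than each of the other 4 genes, which started lower. Without dox at 24 h, Foxa2 read 103 to 137 CPM, against 2.82 to 3.81 CPM for Foxa3. In batch 2, Foxa1 then read 2.45 to 2.83 CPM and Sox17 1.07 to 1.67 CPM. Such levels lie close to the 0.5 CPM added below and leave little room to fall. For these genes, a smaller effect and a low starting level cannot be told apart. In each of the 10 libraries at 24 h of batches 1 and 2, the log2 ratio of a pair of genes was taken from CPM plus 0.5, and dox labels were permuted within batch (exact permutation test, 2-sided, 90 arrangements, 10 pairs). With dox minus without, the log2 ratio of Foxa2 changed by -3.36 over Foxa1, -4.50 over Foxa3, -3.96 over Sox17 and -3.73 over Hhex. Each of these had p = 0.0111, the smallest that 90 arrangements can give, and an adjusted p of 0.0278 in the exact permutation test. All 4 calls were lost when either batch 2 library without dox was left out (adjusted p 0.0667 to 0.0833). In batch 2 alone the change was -4.35 over Foxa1, -5.17 over Sox17 and -5.22 over Hhex, and in batch 1 alone -2.04, -2.36 and -1.73 in that order. The ratio of Foxa1 over Foxa3 changed by -1.14 (exact permutation p = 0.0222, adjusted p = 0.0444). That call was lost with a pseudocount of 1 (exact permutation test, adjusted p = 0.0889) and without dox replicate 1, 2 or 3 of batch 2 (0.0667 each). Without either batch 2 library without dox the change was -1.44 and -1.35, also not called, with the same limit on arrangements. The change of Foxa1 over Foxa3 was -0.27 in batch 2 alone and -2.29 in batch 1 alone. The other 5 pairs were not called (adjusted p 0.375 to 0.778).

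The make-up of the Foxa transcripts differed accordingly. Per exon length, Foxa2 made up 53.8 to 54.9% of the 3 Foxa genes together with dox at 24 h in batch 1, against 90.9 to 93.5% without. In batch 2 it made up 45.7 to 53.2% with dox, against 95.1 to 96.5% without. Foxa3, the least changed, then held 33.5 to 43.0% with dox in batch 2, against 2.31 to 3.38% without. In the double negative cells of day 4 Foxa1 held 20.8 to 27.2%, beside 65.9 to 74.6% for Foxa2.

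**Figure D3:**
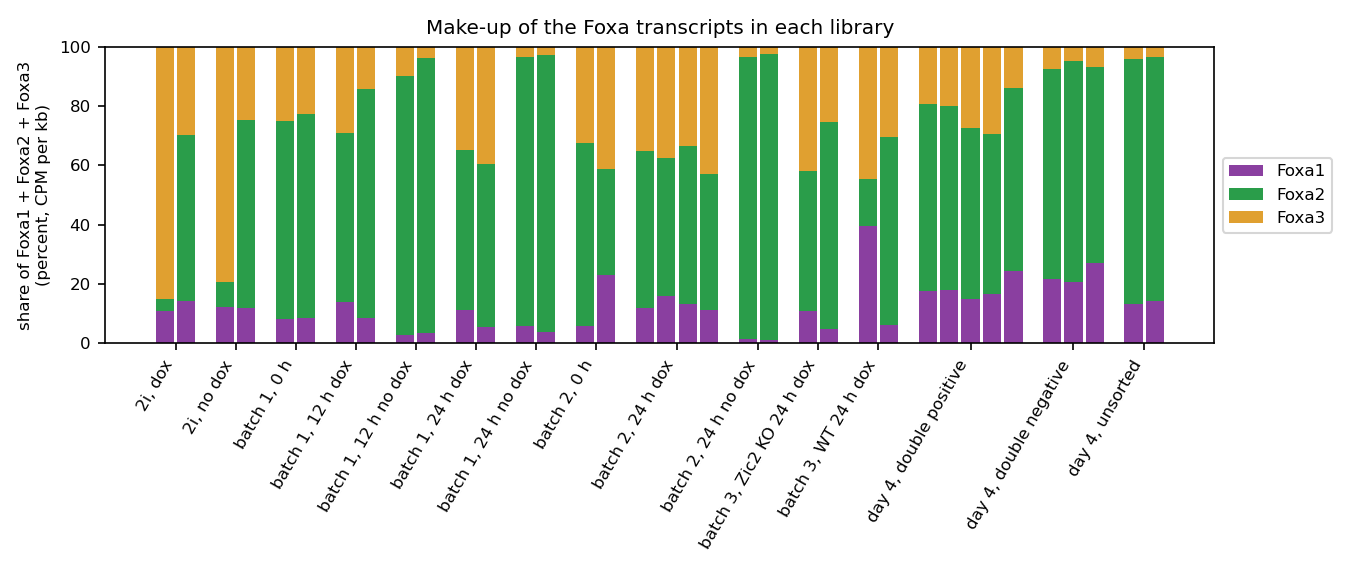
Share of Foxa1, Foxa2 and Foxa3 (percent of their sum in CPM per kb of exon) in each library, 1 bar a library. Foxa2 holds over 90% at 24 h without dox and 45.7 to 54.9% with dox in batches 1 and 2; Foxa1 holds 20.8 to 27.2% in the double negative libraries.

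At 12 h, Foxa2 was lower with dox and the 1 gene of the 5 called, where 5.66% of all genes were called, 3.29% higher and 2.37% lower. Foxa2 read 3.84 and 11.8 CPM with dox, against 35.3 and 49.5 CPM without. The groups were separate, as held for 40.3% of 18498 genes, and the change was -2.44 ± 0.51 (adjusted p = 0.00905). The call was lost without the second library without dox (adjusted p = 0.0897) or the first with dox (0.131). At this time Foxa1 read 1.31 and 1.81 CPM with dox against 1.66 and 2.47 CPM without, and Sox17 5.39 and 7.02 CPM with dox against 7.57 and 9.63 CPM without. Foxa3 read 1.67 and 1.86 CPM with dox against 3.35 and 1.75 CPM without, and Hhex 4.63 and 4.01 CPM with dox against 5.59 and 7.11 CPM without. These 4 changes lay between -0.53 and -0.38 and were not called (adjusted p at least 0.728). The Foxa2 effect at 24 h exceeded that at 12 h by -3.06 ± 0.62 (adjusted p = 0.0415), the 1 call among the 5, where 0.522% of all genes were called, 0.194% higher and 0.328% lower. That difference was called no longer in 10 of 14 fits that left out a library, with adjusted p up to 0.278, nor in batch 1 alone (0.0682). Within batch 1 the effects of Foxa1 (-2.98, adjusted p = 0.0156), Sox17 (-2.14, adjusted p = 0.00905) and Hhex (-2.85, adjusted p = 0.00432) were larger at 24 h than at 12 h.

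Set against 0 h, the 24 h libraries with dox showed no call in the 5 genes, 1 unadjusted p below 0.05 and no DESeq2 call, where 52.7% of all genes were called, 27.4% higher and 25.3% lower. Foxa2 differed from 0 h by -0.89 ± 0.40 (adjusted p = 0.0715, 95% interval -1.72 to -0.05), and Sox17 by 1.51 ± 0.71 (adjusted p = 0.105). Foxa2 was called lower without the second 0 h library of batch 2 (-1.25, adjusted p = 0.00483). Sox17 was called higher without the first (1.98, adjusted p = 0.0495). In batch 1 alone Sox17 with dox was above 0 h by 1.68 ± 0.25 (adjusted p = 0.000742) and Hhex below it by -1.31 ± 0.26 (adjusted p = 0.00399). In batch 1, then, Sox17 reached 11.8 and 9.57 CPM with dox for 24 h, between its levels at 0 h and at 24 h without dox, while Foxa2 with dox read below both, though not called against 0 h (adjusted p = 0.0862).

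At 24 h without dox, Foxa2 and Sox17 were both high in batch 1, whereas in batch 2 Foxa2 alone of the pair was high. There the ratio of Foxa2 to Sox17, each per kb of exon, was 150 and 259 in batch 2 and 3.01 and 4.51 in batch 1. In every other library it lay between 0.503 and 14.9, with 1.97, 2.19 and 2.3 in the double negative cells. Foxa2 averaged 131 ± 9.05 CPM in batch 2 and 119 ± 22.7 CPM in batch 1 (SD, n = 2 each), while Sox17 averaged 1.37 ± 0.43 CPM in batch 2 and 64.6 ± 6.07 CPM in batch 1. The change from 0 h to 24 h without dox was compared between the batches in a test added after the data were seen. Batch 2 minus batch 1 gave -3.72 ± 1.18 for Sox17 (unadjusted p = 0.00851, adjusted p = 0.411) and -1.57 ± 0.47 for Hhex (adjusted p = 0.329). None of the 5 was called in it, 2 had an unadjusted p below 0.05 and DESeq2 called none, where 0.172% of all genes were called, 0.043% higher and 0.129% lower. Among other genes, Kdr read 4.33 to 5.37 CPM at 24 h without dox in batch 2 and 56.5 to 79.5 CPM in batch 1, a batch difference in the change from 0 h of -4.72 ± 0.63 (adjusted p = 0.00786). Mesp1 read 0.808 to 1.51 CPM in batch 2 and 41.5 to 45.3 CPM in batch 1, a batch difference of -5.81 ± 2.57 that was not called (adjusted p = 0.644), and that of Pdgfra was -1.68 ± 0.39 (adjusted p = 0.159). Eomes, a T-box gene of mesoderm and endoderm formation, read 524 to 616 CPM in batch 2 and 536 to 563 CPM in batch 1, and Cer1, a Nodal and Wnt antagonist of anterior endoderm, 24.4 to 38.1 CPM in batch 2 and 149 to 180 CPM in batch 1. Kdr was thus much lower in batch 2, and Eomes overlapped. Of the gene lists used below, Gata6 (-2.74 ± 0.45, adjusted p = 0.0206), Cxcr4 (-4.15 ± 0.54, adjusted p = 0.00786) and Foxj1 (-2.94 ± 0.49, adjusted p = 0.0246) also had called negative differences. No gene of these lists had a called positive one. The median difference was -1.27 for regulators, 0.04 for effectors, -0.70 for node and notochord genes and -2.09 for visceral and parietal endoderm genes. Over all genes it was -0.02. Whether these levels have a part in the Sox17 and Hhex values was not tested.

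**Figure D4:**
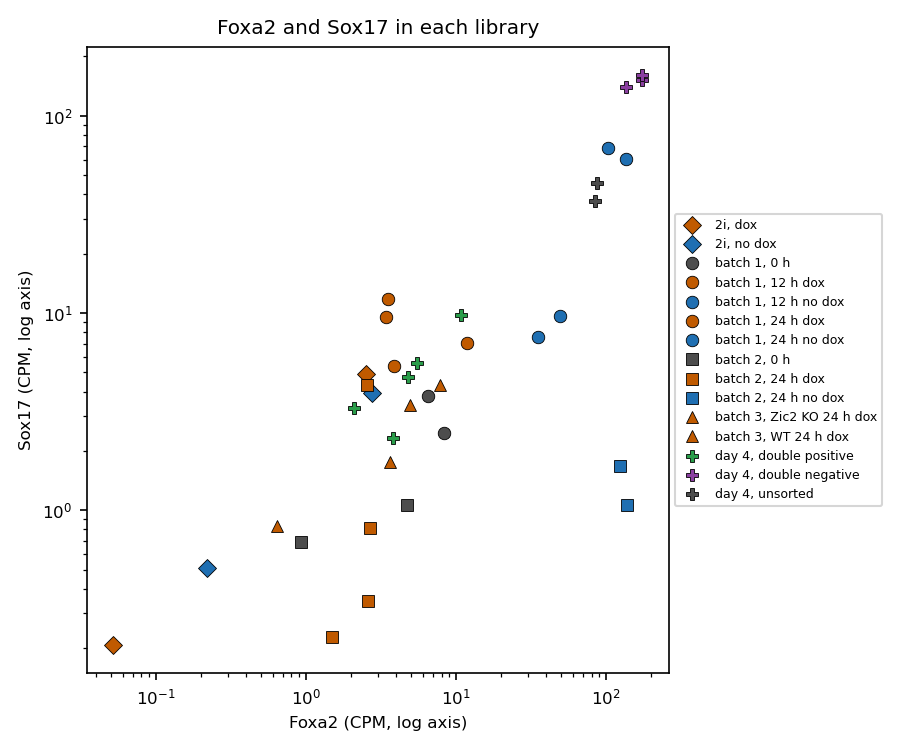
Foxa2 against Sox17 (CPM, log axes) in each of the 36 libraries, with shape for batch or culture and colour for treatment or sort. The 2 libraries of batch 2 at 24 h without dox stand at 125 and 137 CPM of Foxa2 with 1.67 and 1.07 CPM of Sox17, apart from the double negative libraries and those of batch 1, where both genes are high.

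Other genes of the endoderm programme moved with the 5 in part. Of 12 mesendoderm and endoderm regulators tested at 24 h, 6 were lower and 2 higher with dox than without, with a median log2 change of -0.96 against 0.02 over all genes. Gsc (-4.83 ± 0.49), a homeobox gene of the anterior streak, Mixl1 (-4.02 ± 0.46), a mesendoderm homeobox gene, and Otx2 (-1.68 ± 0.14), an anterior patterning gene, were lower. Gata4 (2.25 ± 0.50) and Sox7 (0.94 ± 0.24), which cardiac mesoderm and extraembryonic endoderm also use, were higher. Of 13 definitive endoderm effectors, 8 were lower and 2 higher (median -1.5), among them the epithelial genes Cldn6 (-2.49 ± 0.18) and Epcam (-2.12 ± 0.21), and the Wnt receptor gene Fzd8 (-2.13 ± 0.21). The chemokine receptor gene Cxcr4 (2.82 ± 0.54) and the proteoglycan gene Nepn (4.44 ± 0.47) were higher. The dox effect differed between batches, batch 2 minus batch 1, for Cxcr4 by 4.64 ± 0.38 (adjusted p = 5.09e-05) and for Gata4 by 3.85 ± 0.54 (adjusted p = 0.00465). Of 16 Nodal pathway genes 5 were lower and 5 higher (median -0.20). Nodal itself (-3.13 ± 0.26), its antagonist Lefty1 (-2.52 ± 0.41) and its co-receptor Tdgf1 (-1.57 ± 0.33) were lower, and the effectors Foxh1 (1.04 ± 0.13), Smad3 (1.06 ± 0.18) and Smad2 (0.43 ± 0.09) higher.

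Markers of other cell types that use these 5 factors also differed with dox at 24 h. Of 8 node and notochord genes tested, 5 were lower and 1 higher (median -2.77), with Pkd1l1 at -5.65 ± 0.44, Foxj1 at -5.47 ± 0.51 and Chrd at -2.14 ± 0.17, and with Sox9, which other lineages also use, at 4.01 ± 0.41. Their summed level was 48.4 to 110 CPM with dox over the 2 batches, and 549 to 601 CPM without in batch 1 and 215 to 297 CPM without in batch 2. Noto, a defining notochord gene, was at 0 in every 24 h library with dox, against 0.188 to 0.833 CPM without. Of 19 visceral and parietal endoderm genes 7 were higher and none lower (median 0.50), led by the matrix genes Sparc (1.35 ± 0.16) and Lama1 (2.72 ± 0.34) and by Pth1r (2.56 ± 0.39). For Sparc and Lama1 the batches differed by 1.11 ± 0.20 (adjusted p = 0.0179) and 2.24 ± 0.40 (adjusted p = 0.0187), batch 2 minus batch 1. Ttr, a defining visceral endoderm gene, read 0.229 to 8.66 CPM with dox in batch 2 and 3.98 to 5.48 CPM in batch 1, against 0.314 to 1.44 CPM in batch 2 and 10.2 to 12.1 CPM in batch 1 without. Of 17 endothelium and early blood genes 7 were higher and 1 lower (median 0.70), with Gata2 at 5.06 ± 0.30 and Fli1 at 5.35 ± 0.41. Of 10 pluripotency genes 6 were lower, Nanog by -3.29 ± 0.32, and 1 higher (median -1.56). The part of these other cell types in the values of the 5 genes was not tested.

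From 0 h to 24 h without dox, the same lists gave 6 higher and none lower of 12 regulators (median 1.25), led by Cer1 (5.84 ± 0.48), Mixl1 (5.44 ± 0.54) and Eomes (3.59 ± 0.39), the T-box gene that starts the endoderm programme. Of 13 effectors 5 were higher and none lower (median 0.58), and of 8 node and notochord genes 5 were higher and none lower (median 2.66). Of 16 Nodal pathway genes 4 were higher and 3 lower (median -0.13). None of 19 visceral and parietal endoderm genes was called (median 0.09), 2 of 17 endothelial and blood genes were higher and 5 lower (median -0.24), and 6 of 10 pluripotency genes were lower and none higher (median -1.64). The median over all genes was 0.01.

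On day 4, all 5 genes were lower in Flk1 and Pdgfra double positive cells than in double negative cells. Replicates 3 to 5 of each sort were compared, where 25.6% of all genes were called, 9.41% higher and 16.2% lower. Sox17 read 5.62, 3.29 and 9.81 CPM in double positive cells, against 152, 140 and 160 CPM in double negative cells. It was 23.7-fold lower (-4.57 ± 0.32, adjusted p = 0.00024). Foxa2 read 5.46, 2.09 and 10.8 CPM in double positive cells, against 173, 136 and 174 CPM in double negative cells. It was 25.9-fold lower (-4.70 ± 0.44, adjusted p = 0.000719). Every double negative library stood far above every double positive one for both genes.

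Foxa1 read 1.98, 0.897 and 6.02 CPM in double positive cells, against 73.9, 53.4 and 101 CPM in double negative cells (-4.67 ± 0.56, adjusted p = 0.00143). Hhex read 6.64, 6.81 and 7.09 CPM in double positive cells, against 83.3, 53.4 and 60 CPM in double negative cells (-3.22 ± 0.17, adjusted p = 6.92e-05). Foxa3 read 2.21, 0.972 and 2.06 CPM in double positive cells, against 15.7, 7.2 and 15.7 CPM in double negative cells (-2.85 ± 0.40, adjusted p = 0.00206). No double positive library overlapped a double negative one for any of the 5, as held for 32.8% of 18498 genes with a group mean of at least 1 CPM in at least 2 groups. Over double positive replicates 3 to 5 Hhex was nearly level, whereas Foxa1, Foxa2 and Sox17 were each highest in replicate 5. With replicates paired by number, all 5 calls stood, and the genes called over the whole table numbered 7254 in place of 4318.

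The unsorted cells lay between the sorts. Foxa1 read 19.3 and 21.2 CPM, Foxa2 84.9 and 87.2 CPM, Foxa3 3.45 and 3.1 CPM, Sox17 36.8 and 45.5 CPM and Hhex 22.5 and 29.9 CPM in them. Double positive replicates 1 and 2 read 1.87 and 1.56 CPM of Foxa1, 4.82 and 3.82 CPM of Foxa2, 1.25 and 1.06 CPM of Foxa3, 4.76 and 2.31 CPM of Sox17 and 9.07 and 7.25 CPM of Hhex. All 5 genes were lower there than in unsorted replicates 1 and 2, by -4.16 ± 0.14 for Foxa2 to -1.35 ± 0.23 for Foxa3 (adjusted p at most 0.00556), where 51.7% of all genes were called, 22.9% higher and 28.8% lower. The Foxa3 call was lost without the first unsorted library (adjusted p = 0.0671) and with all 5 double positive libraries (0.0697). Against unsorted cells, double negative cells were higher in all 5, by 0.96 ± 0.11 for Foxa2 to 2.03 ± 0.32 for Foxa3 (adjusted p at most 0.00583), where 38.2% of all genes were called, 20.2% higher and 18.1% lower. Double positive replicates 1 and 2 held 17644613 and 19874949 gene counts with 17.4% of reads not uniquely aligned in both, against 50260410 and 51940589 counts with 8.04 and 8.14% in unsorted cells. Double negative libraries held 12642216 to 13655955 counts. Depth and sort therefore cannot be told apart in either comparison with unsorted cells, and double negative and unsorted libraries share no replicate number. Foxa2 was not called there when all day 4 libraries were fitted together (adjusted p = 0.0889), nor Foxa3 without the second unsorted library (0.0571).

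Genes of the wider programme in the double positive against double negative comparison included the liver and gut regulator Hnf4a (-4.31 ± 0.44) and Cer1 (-4.85 ± 0.54). Of 12 regulators 5 were lower and 2 higher (median -0.71, against 0.01 over all genes), the 2 being Gata4 (2.42 ± 0.21) and Sox7 (2.72 ± 0.79). Of 12 effectors 10 were lower and 1 higher (median -2.98), with Epcam at -3.52 ± 0.17 and Cxcr4 the 1 that was higher (1.25 ± 0.23). Of 15 Nodal pathway genes 4 were lower and 1 higher (median 0.03), with Nodal at -3.60 ± 0.41. Cer1 read 4.56 to 30.02 CPM over all 5 double positive libraries and 422 to 472 CPM over the double negative ones.

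The double negative cells also carried the node and notochord genes, of which 9 of 10 were lower in double positive cells and none higher (median -4.42). Their summed level was 99.6 to 196 CPM in double positive and 1284 to 1460 CPM in double negative libraries. Noto read 0.299 to 1.90 CPM in double positive and 12.8 to 22.3 CPM in double negative cells, and Shh 0.0748 to 1.32 CPM in double positive and 4.83 to 21.3 CPM in double negative cells. Of 10 pluripotency genes 8 were lower and 1 higher (median -2.66), with sums of 109 to 227 CPM in double positive and 383 to 585 CPM in double negative libraries. Of 12 visceral and parietal endoderm genes 3 were lower, among them Spink1 (-4.32 ± 0.61) and Cited1 (-1.25 ± 0.18), and 2 higher, Lama1 and Pth1r (median -0.35), with sums of 1338 to 1628 CPM in double positive and 1460 to 2036 CPM in double negative libraries. Of the defining visceral genes, Afp was at 0 in every double positive library and at most 0.0768 CPM in double negative ones, and Ttr read 0 to 0.227 CPM in double positive and 0.316 to 1.76 CPM in double negative cells. Spink1 read 0.224 to 2.56 CPM in double positive and 18.3 to 40.6 CPM in double negative cells, and against unsorted cells 8 of 16 genes of that list were higher in double negative cells and 3 lower. Of 15 endothelium and early blood genes 6 were higher and 1 lower (median 1.27), and their sum, which includes the sorted Kdr, was 830 to 1388 CPM in double positive and 51.8 to 72.1 CPM in double negative libraries. The part of node, endothelial and pluripotent cells in the levels of the 5 genes was not tested.

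In the libraries labelled Zic2 KO, none of the 5 genes was called against those labelled WT, both at 24 h with dox. Over all genes, edgeR called 0%, 390 had an unadjusted p below 0.05 and DESeq2 called 5, and among the 5 genes none had an unadjusted p below 0.05 and DESeq2 called none. Foxa2 read 3.63 and 7.87 CPM in KO libraries, against 0.644 and 4.93 CPM in WT libraries, an overlap with a change of 1.06 ± 0.88 (95% interval -1.14 to 3.26). Sox17 read 1.75 and 4.32 CPM in KO libraries against 0.837 and 3.41 CPM in WT libraries, and Foxa1 1.19 and 0.774 CPM in KO libraries against 2.25 and 0.653 CPM in WT libraries, both with overlap. Foxa3 read 2.76 and 2.45 CPM in KO libraries against 1.55 and 2.03 CPM in WT libraries (0.55, 95% interval -0.34 to 1.43). These did not overlap, as held for 29.8% of 18498 genes. Hhex read 5.45 and 5.61 CPM in KO libraries against 7.15 and 4.79 CPM in WT libraries (-0.11, 95% interval -0.85 to 0.63). For Sox17 the change was 0.53 (95% interval -1.37 to 2.43), and all 5 intervals hold changes of either sign.

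In 2i, none of the 5 genes was called with dox against without. Mesp1 read 85.4 to 119 CPM with dox there, against 0.613 to 1.09 CPM without, itself not called (6.90, adjusted p = 0.146). Over all genes, edgeR called 0%, 385 had an unadjusted p below 0.05 and DESeq2 called 47, and of the 5 genes none passed either. As this fit did not call Mesp1, it had little power. With replicates paired by number, edgeR called 633 genes and again none of the 5 (adjusted p 0.552 to 0.965), though the numbers were not shown to pair these libraries. Hhex read 11.6 and 11.6 CPM with dox, against 13.2 and 13.2 CPM without (-0.23 ± 0.20, adjusted p = 1). These did not overlap, as held for 24.8% of 18498 genes. Foxa1, Foxa2 and Sox17 differed more by replicate number than by dox. Foxa2 read 0.052 and 2.52 CPM with dox against 0.218 and 2.76 CPM without, and Sox17 0.208 and 4.92 CPM with dox against 0.509 and 3.93 CPM without. Both replicates 1 were low and both replicates 2 higher. The value of 0.052 CPM is 1 count, and 0.218 CPM is 3 counts. Foxa1 read 0.208 and 0.9 CPM with dox against 0.437 and 0.715 CPM without, and Foxa3 0.987 and 1.14 CPM with dox against 1.75 and 0.919 CPM without. Foxa2 without dox was near the floor in 2i, whereas it read 103 to 137 CPM at 24 h in batches 1 and 2. A fall as large as that at 24 h could hardly be measured in 2i. The comparison of the 2 dox effects therefore cannot say whether Foxa2 responds to dox in 2i. With that limit, the dox effect on Foxa2 at 24 h of differentiation exceeded that in 2i by -5.07 ± 1.13 (adjusted p = 0.0123). It was the 1 call of the 5, where 7.04% of all genes were called, 3.27% higher and 3.77% lower. Without the second 2i library with dox it was -0.65, where a low replicate 1 stood alone against both replicates without dox. With replicates paired by number in the edgeR fit it was -5.055 ± 1.05 and still called (adjusted p = 0.0134).

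Over the 15 group means, log2(CPM + 0.5) of the 5 genes correlated pairwise at r = 0.605 (Foxa2 and Hhex) to 0.886 (Foxa1 and Foxa3). These points share libraries and batches and are given as a description. Among 18438 genes, the nearest to Foxa1 were Frmpd2 (r = 0.979), Gm45623 (0.976) and Lrrc6 (0.966), and among the nearest to Foxa2 were Pla2g7 (0.970) and Ccl20 (0.945). Nearest to Foxa3 were Thpo (0.936), Ccdc96 (0.931) and Slc38a3 (0.919), and to Hhex Ehf (0.956), Gm38345 (0.948) and Wnt3a (0.927). Nearest to Sox17 were T2 (0.937), Gm37587 (0.926), which overlaps it on the other strand, and Rnf149 (0.921). No gene stood on more than 1 of these lists.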

How the data were processed

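The authors deposited raw read counts per Ensembl gene for each library. Trimmomatic, STAR, HTSeq, DESeq2 and the mm10 build are named per the submitters' processing notes, with no version, setting, annotation or strand use given. The closing lines of each file that name no gene were left out. Relative to the gene total plus that line, reads outside features made up 3.67 to 10.5%, ambiguous reads 4.05 to 5.34% and reads not aligned uniquely 6.82 to 28.9%. Symbols and coordinates came from GENCODE M21 (GRCm38), which matched 49412 of 49671 identifiers.

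CPM scales each count to the gene total of its library. The test was the quasi-likelihood F test of edgeR 4.0.16 in R 4.3.3, robust and 2-sided, on genes passing filterByExpr with TMM factors. P-values were adjusted over all genes of a comparison by the Benjamini-Hochberg method, with a threshold of 0.05. The 18 libraries of batches 1 and 2 entered 1 fit with a batch term, batch 3 and the 2i libraries each their own. The 24 h against 2i difference came from a joint fit of 22 libraries. Double positive was compared with double negative cells over replicates 3 to 5, and with unsorted cells over replicates 1 and 2. Scripts were tested on simulated data. All 5 genes passed the filter in each comparison.

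Same-numbered double positive and double negative libraries deviated together (r = 0.496 to 0.596 over 3 pairs and 10406 genes), so the numbers were taken to pair them. The changes, SE, adjusted p and shares called that are reported for that comparison nevertheless come from a fit without pairing. The paired fit is given as an alternative. Alternatives were DESeq2 1.42.0, RLE scaling, no filter, no batch term, single batches, a replicate block, other library sets, TMM-scaled levels, and leaving out each library. PCR duplicates were not marked by molecular identifiers, so counts limit the precision from counting alone.

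The 5 genes, 7 gene lists (Nodal pathway, mesendoderm and endoderm regulators, definitive endoderm effectors, node and notochord, visceral and parietal endoderm, endothelium and early blood, pluripotency) and tests were chosen with earlier results of these data known. By rule, each list names at most 3 called genes in each direction with the smallest adjusted p. Each of the 5 genes also has its 3 nearest genes named, by Pearson correlation of log2(CPM + 0.5) over group means, among genes reaching 1 CPM in at least 2 groups. Some genes these rules select are not reported here. Levels of Noto, Shh, Afp, Ttr and Cer1 are given as defining markers and were chosen after their values were seen.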

Additional observations from a re-analysis of the deposited data

Results flagged for a closer look

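In 4 of the 10 groups of 4 or 5 libraries tested (5 genes in 2 groups), 1 library stood apart from the rest of its group. Chance would flag about 1 in 20 independent groups of like libraries, but the 5 genes share their libraries. The double positive group also joins replicates 1 and 2 (17644613 to 19874949 gene counts) with replicates 3 to 5 (12126604 to 13372107). Sox17 read 4.33 CPM in replicate 1 of batch 2 at 24 h with dox, above the other 3 libraries at 0.229 to 0.809 CPM. Foxa2 read 1.49 CPM in replicate 4 of that group, below the others at 2.57 to 2.67 CPM. Foxa1 read 6.02 CPM in replicate 5 of the double positive cells, above the others at 0.897 to 1.98 CPM. Hhex read 9.07 CPM in replicate 1 of the double positive cells, above the others at 6.64 to 7.25 CPM.

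In 3 tests of a difference between effects, a gene passed. The dox effect on Foxa2 was larger at 24 h than at 12 h by -3.06 on the log2 scale (adjusted p = 0.0415), which was lost in 10 of 14 fits without a library and with the replicate block (0.0788), and was -2.03 without the second 12 h library with dox (0.188). It was larger at 24 h of differentiation than in 2i by -5.07 (adjusted p = 0.0123), but Foxa2 without dox was already low in 2i (0.218 and 2.76 CPM). That difference was -0.65 without the second 2i library with dox and -5.055 with the replicate block (adjusted p = 0.0134). The dox effect on Hhex at 24 h differed between batches by 3.11, batch 2 minus batch 1 (adjusted p = 0.00515), which was lost without the first 24 h library without dox of batch 2 (0.0529).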

How the results depend on the processing

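Setting aside fits that left out a library, 343 of 389 fitted changes of the 5 genes kept direction and side of the threshold, as did 517 of 565 with a library left out. RLE scaling changed none of 75. Of 75 group levels, 4 moved by more than their SD with TMM-scaled CPM. For the rest, the cause was not tested. Most groups hold 2 libraries, the 12 h groups come from batch 1 alone, and the lowest values rest on 1 to 5 counts.

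Without a filter on low counts, calls were gained for Sox17 with dox at 24 h (-1.68), for Foxa1 and Sox17 in 24 h against 12 h dox effects (-2.05 and -1.22), for Foxa1, Foxa2, Sox17 and Hhex from 12 h to 24 h without dox (1.70, 1.84, 2.34 and 1.34), for Foxa2 and Sox17 at 24 h with dox against 0 h (-0.87 and 1.52), for Sox17 in the batch difference of the dox effect (2.65), for Foxa2 and Sox17 in that of the change from 0 h (1.56 and -3.68), and for Foxa1, Sox17 and Hhex in 24 h against 2i (-2.24, -1.71 and -1.41). Genes called were then 1628 for dox at 12 h (1052 as reported), 873 for its difference from 24 h (97), 605 for 12 h against 0 h (59), 801 for 24 h against 12 h (49), 514 and 423 for the 2 batch differences (117 and 32), and 18 in 2i (0).

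DESeq2 gained Foxa1 in 24 h against 12 h dox effects (-2.06), Foxa3 from 0 h to 24 h (0.70), and Foxa1 and Foxa2 from 12 h to 24 h (1.68 and 1.87). It called 498 genes for 24 h against 12 h dox effects, 244 for 12 h against 0 h, 311 for 24 h against 12 h, 255 and 134 for the batch differences, 5 for Zic2 KO and 47 in 2i.

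With a replicate block, the Foxa2 difference between 24 h and 12 h was lost (-2.85, adjusted p = 0.0788), and Sox17 was called in both batch differences (3.43 and -3.74). Genes called with the block were 309 for 24 h against 12 h dox effects, 94 for 24 h against 12 h, 443 and 169 for the batch differences, 633 in 2i and, on day 4, 7254 in double positive against negative cells. The block changed no other call of the 5 genes. Outside that sort, r ran from -0.211 to 0.858 and the numbers were not shown to pair libraries. Where groups hold 2 libraries, the 2 pairs are mirror images, so the check could not show pairing. There r was 0.773 in 2i, 0.691 for dox at 12 h and 0.357 for Zic2 KO. For double positive and unsorted libraries of the same number r was -0.211, a single weak value from 2 libraries in each group. With crossed pairing, chosen after seeing the data, 9458 genes were called (8706 uncrossed, 10010 as reported). No paired analysis was possible for double negative against unsorted cells because they share no replicate numbers.

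In batch 1 alone, dox at 24 h gave -0.70 for Foxa3 and -2.6 for Sox17. Its difference from 12 h gave -2.98 for Foxa1, -2.66 for Foxa2, -2.14 for Sox17 and -2.85 for Hhex. From 0 h to 12 h Foxa2 gave 2.45, and from 12 h to 24 h Foxa1 gave 2.05, Sox17 2.91 and Hhex 1.92. With dox against 0 h, Sox17 gave 1.68 and Hhex -1.31. Genes called were 1590 for dox at 12 h, 638 for 24 h against 12 h dox effects and 573 for 24 h against 12 h. In batch 2 alone, dox at 24 h gave -1.16 for Foxa3, 0.058 for Sox17, -0.29 for Hhex and 3118 genes called. From 0 h to 24 h without dox, Foxa1 gave 1.79, Sox17 0.58, Hhex 0.53 and 658 genes were called. With dox against 0 h, Foxa1 gave 0.21, Hhex 0.24 and 5957 genes were called. The log2 ratios with dox minus without were, in batch 1 and in batch 2, -2.04 and -4.35 for Foxa2 over Foxa1, -2.36 and -5.17 over Sox17, -1.73 and -5.22 over Hhex, -2.29 and -0.27 for Foxa1 over Foxa3, 0.31 and -0.87 for Foxa1 over Hhex, -1.98 and 0.55 for Sox17 over Foxa3, and -2.6 and 0.60 for Hhex over Foxa3. Sox17 over Hhex was -0.050 in batch 2.

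Without a batch term, 24 h against 0 h gave 3.94 for Sox17 and 1.53 for Hhex, no longer called, with 2089 genes called, and 24 h against 2i gave 686 genes. With all 5 double positive libraries against unsorted, Foxa3 gave -1.0 and 5112 genes were called. With all day 4 libraries together, Foxa2 in double negative against unsorted cells gave 0.96. A pseudocount of 1 gave -0.93 for Foxa1 over Foxa3.

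Leaving out 1 library moved values over these ranges. For 12 h against 0 h, Foxa2 ran from 2.48 to 3.09, Foxa3 from -0.26 to 0.57, Hhex from -0.048 to 0.40 and genes called from 5 to 68. For 24 h against 0 h without dox, Foxa3 ran from 0.53 to 0.91 and Hhex from 1.16 to 1.83, and with dox Foxa1 from -0.34 to 0.11, Foxa2 from -1.25 to -0.64, Sox17 from 0.95 to 1.98 and Hhex from -0.39 to 0.15. For dox at 12 h, Foxa2 ran from -3.47 to -1.78 and genes called from 423 to 693. For 24 h against 12 h dox effects, Foxa2 ran from -3.74 to -2.03 and genes from 1 to 249. Genes from 12 h to 24 h ran from 0 to 45. For dox at 24 h, Foxa3 ran from -1.04 to -0.77 and Sox17 from -2.29 to -1.37. In the batch differences, Hhex ran from 2.89 to 3.40 with 22 to 237 genes for dox, and 3 to 44 genes for the change from 0 h. For Zic2 KO, Foxa1 ran from -1.18 to 0.57, Sox17 from -0.27 to 1.86, Hhex from -0.36 to 0.19 and genes from 0 to 9. In 2i, Foxa1 ran from -1.51 to 0.58, Foxa2 from -4.73 to 2.43, Foxa3 from -0.79 to 0.18, Sox17 from -3.44 to 2.23 and genes from 0 to 2. For 24 h against 2i, Foxa1 ran from -2.98 to -0.89, Foxa2 from -7.88 to -0.65 and Sox17 from -3.86 to 1.83. Against unsorted cells, Foxa3 ran from -1.5 to -1.21 with 4903 to 12394 genes in double positive cells, and from 1.85 to 2.3 with 1591 to 10022 genes in double negative cells. The ratio of Foxa2 ran from -3.69 to -3.0 over Foxa1, -4.58 to -4.34 over Foxa3, -4.33 to -3.47 over Sox17 and -4.13 to -3.23 over Hhex. Each call was lost when a batch 2 library without dox was left out, where fewer arrangements raise the smallest possible p of the exact permutation test. Foxa1 over Foxa3 ran from -1.44 to -0.82 and Sox17 over Hhex from -0.17 to 0.49.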
